A study of Mus musculus with 244 samples.

Results

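The genes described here encode the subunits of the mitochondrial respiratory chain and of ATP synthase, measured in single macrophages of the mouse aortic arch. Members were chosen by symbol: every row that starts with Nduf, Sdha, Sdhb, Sdhc, Sdhd, Uqcr, Cox4i, Cox5, Cox6, Cox7, Cox8 or Atp5, together with Cycs, which encodes cytochrome c. That gave 97 nuclear genes, beside which stand the 13 protein-coding genes of the mitochondrial chromosome, so 110 of the 24475 genes of the table. Of the 97, 81 encode subunits of complexes I to V (36, 4, 8, 18 and 15 genes), 11 encode assembly factors, 4 are other genes that share a prefix, and 1 is Cycs. Cyc1, the cytochrome c1 of complex III, carries another prefix and is not a member.

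The respiratory chain sits in the inner mitochondrial membrane. Complexes I and II pass electrons from NADH and succinate to ubiquinone, complex III passes them on to cytochrome c, and complex IV, cytochrome c oxidase, passes them to oxygen. Complexes I, III and IV pump protons, and complex V, the ATP synthase, uses the proton gradient to make ATP. Complex II is encoded wholly in the nucleus, whereas the other complexes mix subunits of both genomes. In macrophages the balance of oxidative phosphorylation and glycolysis is known to shift with the state of activation, and complex II also takes part in the tricarboxylic acid cycle.

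The study compared plaque macrophages before and shortly after regression of atherosclerosis was set off by transplantation. In the regression group, diseased arches of Apoe-/- donors that had eaten high-fat diet for 16 weeks were grafted into WT mice on chow and collected 3 days later. In the baseline group, cells came from Apoe-/- mice after the same 16 weeks of high-fat diet. The arches of both groups thus share the Apoe-/- genotype. The groups differ in the host's Apoe, its diet and the surgery, which cannot be told apart. Apoe itself had the highest regression minus baseline difference of all genes compared, 11.56 in mean log2(RPKM + 1). The captured cells may thus differ in genotype and in origin, donor or host. This was not tested and cannot be told apart from the condition. The sort kept CD45+CD11b+F4/80+ cells, which a Fluidigm C1 chip then captured 1 by 1. One protocol label speaks of islet cells while all others say macrophage, and the sex, age and number of animals are not given. At least 3 of 9 macrophage markers were listed in 100.0% of regression cells and 99.2% of baseline cells. Single macrophage markers differed between the groups, with Adgre1 at -1.19, Cd68 at -1.05, Lyz2 at 1.45 and Itgam at 1.64 as regression minus baseline in mean log2(RPKM + 1). The islet hormone genes Ins1, Ins2, Gcg and Iapp together reached at most 27.7 RPKM in a regression cell and 13.4 RPKM in a baseline cell.

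Each library is 1 cell, and 113 regression cells and 125 baseline cells were used. The median cell listed 2360 genes in regression and 2491 genes at baseline, where listed means an RPKM (reads per kilobase of transcript, scaled to the library's reads) of 1 or more. Estimated depth had a median of 0.966 M reads in 54 regression libraries and 1.08 M reads in 71 baseline libraries for which it could be read. No animal is named, so each condition counts as 1 sample: the differences below stand without replicates, and none carries a p-value. Sample numbers form 5 stretches of 1 condition each: regression cells 1 to 20 (20 cells), 93 to 111 (18 cells) and 168 to 244 (75 cells), and baseline cells 21 to 92 (69 cells) and 112 to 167 (56 cells). The labels do not say what a stretch stands for. A level below is the mean of log2(RPKM + 1) over cells, its SD is the spread over cells, and a difference is the regression level minus the baseline level on that scale. The scale understates the change of low genes.

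Taken over all nuclear subunits, the chain did not stand uniformly higher or lower in regression cells, but its complexes differed from one another. Complex IV genes were mostly higher, complex II genes were lower or level, and complexes I, III and V held genes of both directions. Of the 81 nuclear subunits, 72 were compared, which means that the share of cells listing the gene, averaged over both conditions, was at least 25%. Their median difference was 0.12, beside -0.05 over all 3513 genes compared. A difference above 0 was found for 41 of the 72 (56.9%), against 46.7% of all genes compared. Differences of 1 or more were found for 8 subunits (11.1%), against 5.81% of all genes compared, and differences of -1 or less for 3 (4.17%), against 7.83%. The 8 were Cox5a, Atp5l, Cox7b, Ndufa4, Uqcrb, Cox8a, Ndufa3 and Cox6c, and the 3 were Uqcrc1, Sdhb and Ndufs3. All 3 regression stretches lay above both baseline stretches for 13 subunits (18.1%), against 11.7% of all genes compared, and below both for 5 (6.94%), against 17.6%. This balance rests on the stretches included: without cells 1 to 20 the counts were 13 above and 16 below, and without cells 21 to 92 they were 18 above and 14 below. Counted over every row above 0 in any cell, differences of 1 or more made up 1.45% of 15608 rows and differences of -1 or less 1.89%, while the members past these limits remained 8 and 3 of 81. Of the 72 subunits, 48 have transcripts shorter than 1 kb. Among the 447 other compared genes with such transcripts, 55.7% had a difference above 0. Differences of 1 or more made up 10.1% of these 447 and differences of -1 or less 6.49%. All 3 regression stretches lay above both baseline stretches for 18.3% of the 447 and below both for 12.5%.

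**Figure D1:**
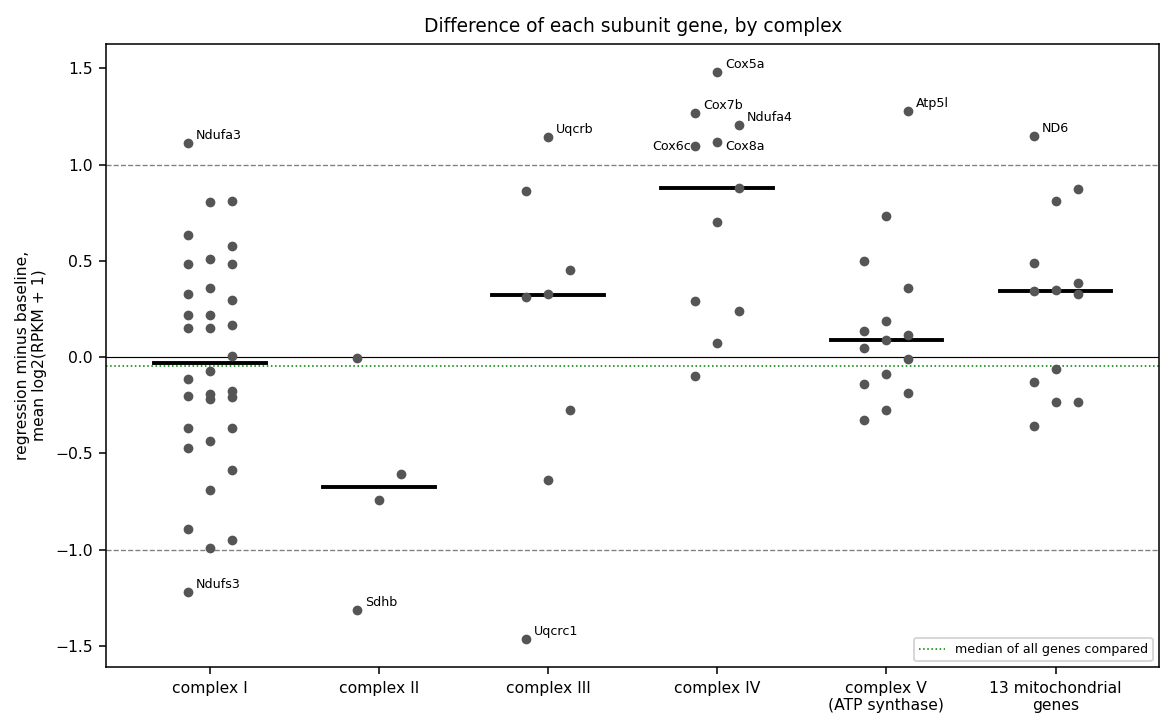
Each point is 1 compared gene, and the vertical axis gives its difference, regression minus baseline, in mean log2(RPKM + 1). Black bars are the median of each complex, from -0.68 in complex II to 0.88 in complex IV, dashed lines mark 1 and -1, and genes past them are named.

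Complex I takes electrons from NADH, and its nuclear subunits were spread evenly around no difference. Of 34 compared subunits, 17 were higher and 17 lower in regression cells, with a median of -0.03. The mean level over these genes was 3.73 in regression cells and 3.76 in baseline cells. Among the 9 compared Ndufs and Ndufv genes, which include the conserved core that holds flavin and iron-sulfur clusters, 3 were higher and the median was -0.21. That median turned to 0.23 when cells 168 to 244 were left out and to 0.11 when cells 21 to 92 were. Among the 25 Ndufa, Ndufb and Ndufc genes, which are accessory subunits, 14 were higher and the median was 0.15, which turned to -0.07 when cells 21 to 92 were left out. No order between these sets of subunits can be read from values that turn in this way.

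Ndufs3, a core subunit of the arm that protrudes into the matrix (chr2:90894634-90904827, minus strand), had 0 to 730.1 RPKM in regression cells (median 0) and 0 to 1477 RPKM in baseline cells (median 0). Its level was 1.48 ± 2.76 in regression cells and 2.70 ± 3.21 in baseline cells, a difference of -1.22. It was listed in 26.5% of regression cells (exact 95% interval 18.7 to 35.7%) and 47.2% of baseline cells (38.2 to 56.3%). The level was lowest in regression cells 168 to 244, with 1.07, whereas regression cells 1 to 20 had 2.89, close to the 2.93 of baseline cells 112 to 167. Without cells 168 to 244 the difference was -0.42.

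Ndufa3, a small accessory subunit of the membrane arm (chr7:3617373-3620327), showed the opposite. It had 0 to 3372 RPKM in regression cells (median 339.5) and 0 to 1844 RPKM in baseline cells (median 170.5), with levels of 7.03 ± 3.38 and 5.92 ± 3.57 and a difference of 1.11. The 3 regression stretches had levels of 6.35, 6.86 and 7.25, all above the 5.90 and 5.93 of the baseline stretches. Without cells 168 to 244 the difference was 0.68. Ndufb3 (0.81) and Ndufa6 (0.81), also accessory subunits, came next, and regression stretches lay above both baseline stretches for Ndufa6 but not for Ndufb3. Ndufa1, an accessory subunit (chrX:37187588-37191163, minus strand), was the most abundant nuclear complex I subunit by mean RPKM. It had 0 to 5315 RPKM in regression cells (median 212) and 0 to 2815 RPKM in baseline cells (median 145). Its difference was 0.63, which was -0.08 without cells 168 to 244. At the low end beside Ndufs3 stood Ndufa5, an accessory subunit of the matrix arm, at -0.99. Its level was 2.91 ± 3.45 in regression cells and 3.90 ± 3.58 in baseline cells, and every regression stretch (2.27, 1.97 and 3.31) lay below both baseline stretches (4.19 and 3.55).

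Complex II, succinate dehydrogenase, had the lowest median of the complexes, -0.68, and none of its 4 genes was higher in regression cells. The mean level over these genes was 2.94 in regression cells and 3.60 in baseline cells. Its stretches overlapped, with 3.82, 2.62 and 2.78 in regression and 3.44 and 3.81 at baseline. Regression cells 1 to 20 were thus not lower than either baseline stretch. Sdhb, the iron-sulfur subunit (chr4:140961203-140979193), had 0 to 1002 RPKM in regression cells (median 21.0) and 0 to 1938 RPKM in baseline cells (median 107). Its level was 4.09 ± 3.72 in regression cells and 5.40 ± 3.57 in baseline cells, a difference of -1.31. It was listed in 61.9% of regression cells (52.3 to 70.9%) and 76.0% of baseline cells (67.5 to 83.2%). The stretches of Sdhb did not overlap, with levels of 5.15, 3.94 and 3.85 in regression and 5.58 and 5.19 at baseline, although cells 1 to 20 were only just below. Without cells 168 to 244 the difference was -0.83.

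Sdhc, which anchors the enzyme in the membrane, had a level of 2.19 ± 2.91 in regression cells and 2.94 ± 3.26 in baseline cells, a difference of -0.74. Sdha, the flavoprotein that oxidises succinate, had 2.28 ± 2.94 in regression cells and 2.89 ± 3.34 in baseline cells, a difference of -0.61. In the cells that listed them, the median was 36.2 RPKM in regression and 76.1 RPKM at baseline for Sdhc, and 33.2 RPKM in regression and 75.9 RPKM at baseline for Sdha. Sdhd, the other membrane anchor, did not follow: it had 0 to 1404 RPKM in regression cells (median 1.39) and 0 to 977 RPKM in baseline cells (median 1.44), and its difference was -0.01. For Sdha, Sdhc and Sdhd the stretches of the 2 conditions overlapped. All 4 genes were listed together in 11 of 113 regression cells (9.73%, 4.96 to 16.8%) and in 20 of 125 baseline cells (16.0%, 10.1 to 23.6%). None was listed in 10 regression cells (8.85%) and 8 baseline cells (6.40%). The complex II median stayed below 0 without any one stretch, from -0.96 without cells 21 to 92 to -0.39 without cells 112 to 167.

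Complex III, which takes electrons from ubiquinol to cytochrome c, split by subunit. Of its 8 genes 5 were higher and 3 lower in regression cells, with a median of 0.32. Uqcrc1, 1 of the 2 large core proteins on the matrix side (chr9:108936633-108949623), had the lowest difference of all 72 subunits. It had 0 to 1768 RPKM in regression cells (median 0.415) and 0 to 2639 RPKM in baseline cells (median 19.2), with levels of 2.70 ± 3.42 and 4.17 ± 3.73 and a difference of -1.46. It was listed in 45.1% of regression cells (35.8 to 54.8%) and 62.4% of baseline cells (53.3 to 70.9%). Every regression stretch (3.28, 1.55 and 2.82) lay below both baseline stretches (3.96 and 4.42), and the difference lay between -1.72 and -1.25 without any one stretch.

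Uqcrc2, the other core protein, was lower by a smaller amount. Its level was 2.27 ± 3.18 in regression cells and 2.91 ± 3.30 in baseline cells, a difference of -0.64, and its regression stretches lay below both baseline stretches too. The size depended on the measure, with -1.01 at a pseudocount of 0.1, -0.31 at a pseudocount of 10 and -0.21 as the log2 ratio of mean RPKM. The other subunits of the complex mostly went the other way, although the small subunit Uqcr10 was also lower, at -0.28. Uqcrb, which helps to form the ubiquinone pocket (chr13:66900617-66905378, minus strand), had 0 to 5035 RPKM in regression cells (median 454) and 0 to 2473 RPKM in baseline cells (median 246). Its levels were 7.50 ± 3.46 and 6.36 ± 3.63, a difference of 1.14. Uqcrh, the hinge protein that helps cytochrome c bind, had 0 to 3469 RPKM in regression cells (median 274) and 0 to 2931 RPKM in baseline cells (median 127), with a difference of 0.86. For both genes every regression stretch lay above both baseline stretches. Without cells 21 to 92 the Uqcrb difference was 0.89, and without cells 1 to 20 it was 0.9996. The median of complex III depended on the cells included, with -0.24 when cells 168 to 244 were left out, 0.086 when cells 112 to 167 were, 0.55 when cells 93 to 111 were and 0.56 when cells 21 to 92 were. Cycs, the mobile carrier that complex III loads, had levels of 5.56 ± 4.06 in regression cells and 5.62 ± 3.90 in baseline cells, a difference of -0.06 that was smaller than the gap between stretches of 1 condition (7.14, 4.22 and 5.46 in regression).

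Complex IV had the highest median difference, 0.88 over its 11 compared nuclear genes, of which 10 were higher in regression cells. The 11 are the forms that most tissues use, counting Ndufa4, which was named for complex I and later placed with complex IV. The mean level over these genes was 6.88 in regression cells and 6.13 in baseline cells. The regression stretches had 7.16, 6.48 and 6.91, above the 5.99 and 6.31 of the baseline stretches. Without cells 21 to 92 the median was 0.51, and without cells 168 to 244 it was 0.58.

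Cox5a, a subunit on the matrix side (chr9:57521274-57532426), had the highest difference of all nuclear members. It had 0 to 2256 RPKM in regression cells (median 168) and 0 to 806 RPKM in baseline cells (median 54.3), with levels of 6.36 ± 3.27 and 4.88 ± 3.31 and a difference of 1.48. It was listed in 86.7% of regression cells (79.1 to 92.4%) and 76.8% of baseline cells (68.4 to 83.9%). Its stretches overlapped: baseline cells 112 to 167 had 5.80, above regression cells 1 to 20 with 5.51 and 93 to 111 with 5.32. Leaving out cells 168 to 244 gave a difference of 0.54, leaving out cells 21 to 92 one of 0.56, and leaving out cells 112 to 167 one of 2.23.

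The other 4 complex IV genes past 1 had every regression stretch above both baseline stretches. Cox7b (chrX:106015700-106022450) had 0 to 3918 RPKM in regression cells (median 187) and 0 to 1814 RPKM in baseline cells (median 75.8), a difference of 1.27. Ndufa4 (chr6:11900292-11907497, minus strand) had 0 to 6060.5 RPKM in regression cells (median 155) and 0 to 2059 RPKM in baseline cells (median 47.7), a difference of 1.21. Cox8a (chr19:7215153-7217616, minus strand) had 0 to 9211 RPKM in regression cells (median 248) and 0 to 1149 RPKM in baseline cells (median 101), a difference of 1.12. These are small single-span membrane subunits around the catalytic core, as is Cox6c (chr15:35925886-35938246, minus strand). Cox6c had 0 to 2695 RPKM in regression cells (median 343) and 0 to 2060.4 RPKM in baseline cells (median 248), a difference of 1.10. For Cox6c the share of listing cells was 95.6% in regression (90.0 to 98.5%) and 85.6% at baseline (78.2 to 91.2%), whereas for Cox7b it was 80.5% in regression (72.0 to 87.4%) and 76.8% at baseline (68.4 to 83.9%). In cells that listed Cox7b, the median was 442 RPKM in regression and 208 RPKM at baseline. Without cells 168 to 244 the differences were 0.77 for Cox7b, 0.58 for Cox8a and 0.78 for Cox6c. Without cells 21 to 92 they were 0.87 for Cox7b and 0.68 for Cox6c, without cells 112 to 167 0.89 for Cox8a, and without cells 1 to 20 0.94 for Ndufa4.

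**Figure D2:**
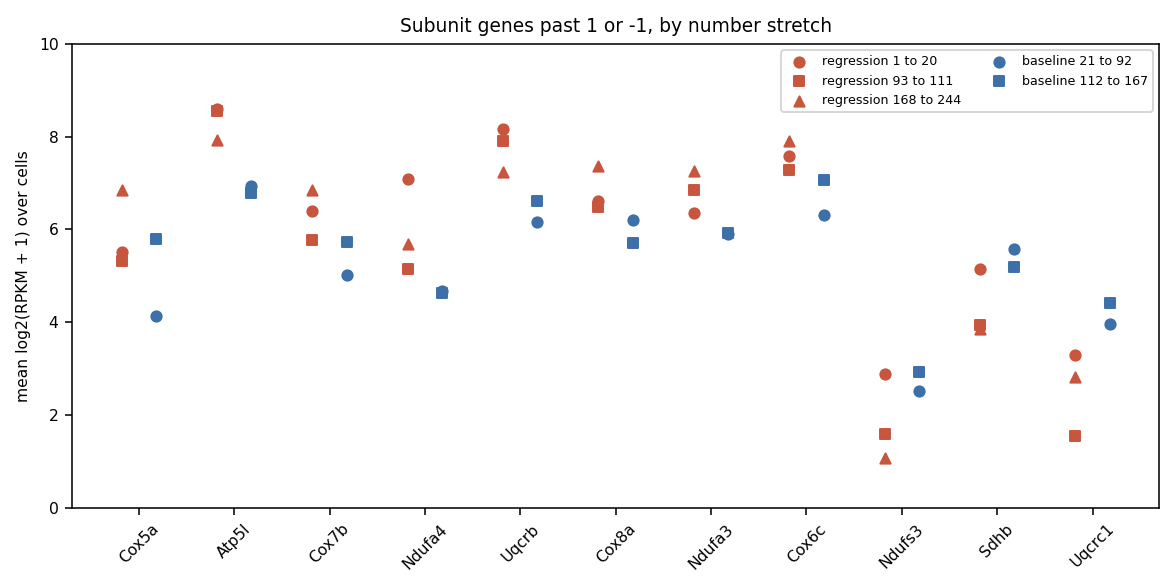
Levels, mean log2(RPKM + 1) over cells, of the 11 nuclear subunit genes with differences of 1 or more or -1 or less, in the 3 regression stretches (red, left) and the 2 baseline stretches (blue, right). The colours are apart for 9 genes and overlap for Cox5a, where baseline cells 112 to 167 stand at 5.80, and Ndufs3, where regression cells 1 to 20 stand at 2.89.

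Not every complex IV gene differed. Cox4i1, the large regulatory subunit, had 0 to 5441 RPKM in regression cells (median 586) and 0 to 2731 RPKM in baseline cells (median 506). Its levels were 8.16 ± 3.12 and 8.09 ± 2.65, a difference of 0.07. Cox6a1 was the nuclear member with the highest mean RPKM of the complex and had 0 to 5294 RPKM in regression cells (median 983) and 0 to 5702 RPKM in baseline cells (median 814), a difference of 0.29. Cox6b1, on the outer face of the complex, was the 1 gene that was lower, with a difference of -0.10, and Cox7a2 was higher by 0.70. The levels of Cox6a1 and Cox6b1 overlapped between stretches, while those of Cox7a2 did not.

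The 7 remaining complex IV genes are isoforms of other tissues and were not compared because few cells listed them. Cox6a2 and Cox7a1, the isoforms of heart and skeletal muscle, were listed in 1.77% and 5.31% of regression cells and in 1.60% and 6.40% of baseline cells. Cox6b2, an isoform of testis, was listed in 5.31% of regression cells and 4.00% of baseline cells. Cox4i2, an isoform best known from lung, was listed in no regression cell and in 1 baseline cell (0.80%). Cox8b, Cox8c and Cox7b2 were listed in 0 of 113 regression cells and 0 of 125 baseline cells, which allows shares of up to 2.65% and 2.40%. The same held for Ndufa4l2, a relative of Ndufa4 that is induced by hypoxia in other cells. Of 7 heart and skeletal muscle markers, none was listed in a regression cell, and Myl2 was listed in 3 and Tnni3 in 1 of 125 baseline cells. Cox7a2l, a relative of Cox7a2 that joins complexes III and IV in supercomplexes, was compared and had levels of 5.24 ± 3.41 in regression cells and 4.61 ± 3.59 in baseline cells. Its difference of 0.63 came to 0.07 when cells 168 to 244 were left out, 0.11 when cells 112 to 167 were and 1.28 when cells 21 to 92 were, and the stretches overlapped.

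Complex V genes lay close together. All 15 were compared, 9 were higher and 6 lower in regression cells, and the median was 0.09 (-0.04 without cells 1 to 20). Apart from Atp5l at 1.28 and Atp5e at 0.73, all lay between -0.33 and 0.50. Atp5l, subunit g of the membrane part (chr9:44912557-44920742, minus strand), had 0 to 4143 RPKM in regression cells (median 541) and 0 to 1991 RPKM in baseline cells (median 249.7). Its levels were 8.15 ± 2.81 and 6.87 ± 2.94. It was listed in 95.6% of regression cells (90.0 to 98.5%) and 89.6% of baseline cells (82.9 to 94.3%), and in these cells the median was 594 RPKM in regression and 272 RPKM at baseline. Every regression stretch (8.60, 8.56 and 7.93) lay above both baseline stretches (6.95 and 6.78), and without any one stretch the difference lay between 1.18 and 1.71. Atp5e, the epsilon subunit of the central stalk, had 0 to 2998 RPKM in regression cells (median 265) and 0 to 1204 RPKM in baseline cells (median 158). Its stretches overlapped, since regression cells 93 to 111 had 5.96.

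The catalytic beta subunit gene Atp5b differed by 0.14 and the alpha subunit gene Atp5a1 by -0.19. Atp5g1, Atp5g2 and Atp5g3 encode the same mature c subunit of the rotor ring. Their levels were 5.11 ± 4.09, 5.09 ± 3.52 and 4.99 ± 3.56 in regression cells and 5.39 ± 3.57, 5.42 ± 3.36 and 5.00 ± 3.30 in baseline cells, so the differences were -0.28, -0.33 and -0.01. Reads from their near-identical coding parts may have been split among them and their processed copies in a way that the table does not show.

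The 13 genes of the mitochondrial chromosome, which encode membrane subunits of complexes I, III, IV and V, were the most abundant members. Their mean level was 10.34 in regression cells and 10.05 in baseline cells, 8 were higher and 5 lower in regression cells, and the median difference was 0.34. COX3, a complex IV subunit (chrMT:8607-9390), had 1452 to 78777 RPKM in regression cells (median 11770.4) and 21.2 to 66469 RPKM in baseline cells (median 10076), with a difference of 0.49. The 3 complex IV genes were all higher, COX1 by 0.39 and COX2 by 0.33. Every regression stretch of COX3 (13.89, 13.26 and 13.62) lay above both baseline stretches (13.06 and 13.19), but by little. The 7 complex I genes ran from -0.36 for ND4L to 1.15 for ND6. The complex III gene CYTB differed by -0.23 (0.05 without cells 168 to 244), and of the complex V genes ATP6 differed by 0.34 and ATP8 by -0.23.

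ND6 is the 1 gene coded on the other strand (chrMT:13552-14070, minus strand) and had 0 to 3765 RPKM in regression cells (median 526) and 0 to 3853 RPKM in baseline cells (median 337). Its levels were 8.52 ± 2.14 and 7.37 ± 2.99, and regression cells 93 to 111 with 6.79 lay below both baseline stretches (7.36 and 7.39). Without cells 168 to 244 its difference was 0.25. The kit does not mark strand, so reads of ND6 and of transcripts from the opposite strand cannot be told apart, and the end of ND6 overlaps that of ND5. ND4 (chrMT:10167-11544) had 1.10 to 12796 RPKM in regression cells (median 1464) and 0 to 10588 RPKM in baseline cells (median 854), a difference of 0.87. Every regression stretch of ND4 (10.45, 9.82 and 10.19) lay above both baseline stretches (9.68 and 8.83), while its neighbour ND4L, with which it shares a few bases and a transcript, differed by -0.36 with overlapping stretches. The ND4L difference was 0.44 when cells 168 to 244 were left out and 0.12 when cells 112 to 167 were. ATP8 and ATP6 also overlap on 1 transcript, and they differed in opposite directions. Regression cells 93 to 111 had the lowest level of the 5 stretches over the 13 genes, 9.70, and regression cells 1 to 20 the highest, 10.62. The same stretches listed the fewest and the most genes, with medians of 1892.5 and 2669 genes a cell. The part of this in the levels of the stretches was not tested.

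**Figure D3:**
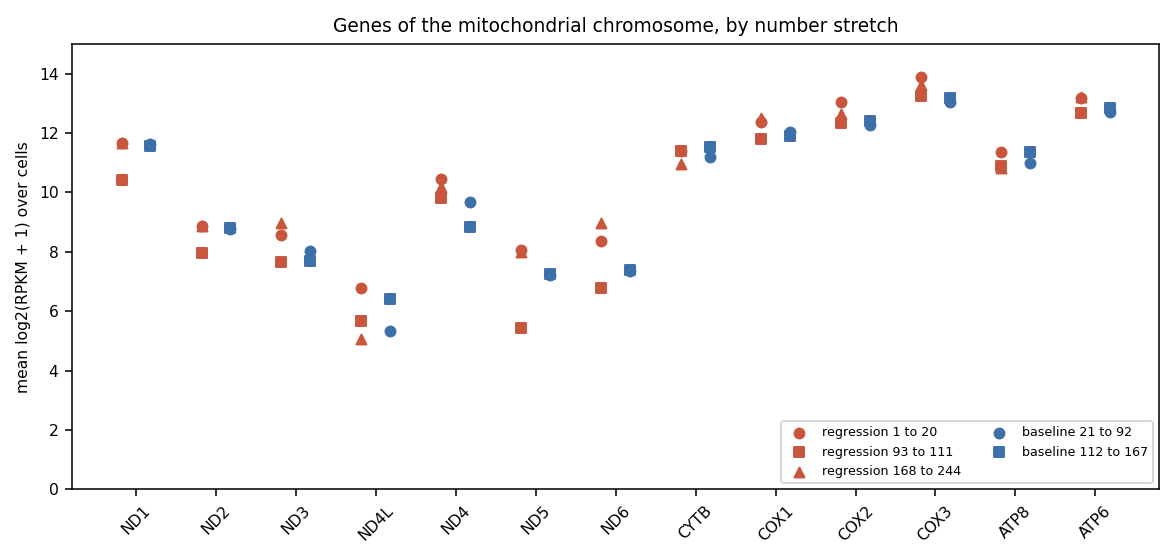
Levels, mean log2(RPKM + 1) over cells, of the 13 mitochondrial genes in the 3 regression stretches (red, left) and the 2 baseline stretches (blue, right). Regression lies above baseline without overlap for ND4 and COX3, and regression cells 93 to 111 (red squares) are the lowest group for several ND genes.

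As a share of each cell's summed RPKM, the nuclear subunits took from 1.22 to 4.90% in regression cells (median 2.56%) and from 0.700 to 3.66% in baseline cells (median 2.06%). The medians of the regression stretches were 2.66, 2.43 and 2.61%, and those of the baseline stretches 2.06 and 2.09%. Complex IV took a median of 0.745% in regression cells and 0.546% in baseline cells, complex V 0.629% and 0.476%, complex I 0.776% and 0.701%, and complex III 0.321% and 0.274%. Complex II took 0.0347% in regression cells and 0.0531% in baseline cells, although regression cells 1 to 20, with 0.0521%, stood at the baseline level. Within a cell, the log2 ratio of complex IV to complex II RPKM, a measure chosen after both had been seen, had a median of 4.57 in regression cells and 3.32 in baseline cells. Its regression stretches had 3.79, 4.47 and 4.62 and its baseline stretches 3.46 and 3.31. The median cell listed 48 of the 81 subunits in regression and 51 at baseline, so the larger RPKM share did not come with more listed subunits. Over the 72 compared genes the share of listing cells had a median of 68.6% in regression and 74.0% at baseline. With a limit of 10 RPKM in place of 1, it was 62.4% in regression and 64.4% at baseline.

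The mitochondrial genes took from 1.26 to 26.5% of a cell's summed RPKM in regression (median 7.29%) and from 1.04 to 26.1% at baseline (median 6.04%). Here the stretches overlapped, with medians of 7.31, 5.66 and 7.37% in regression and 5.98 and 7.09% at baseline. Of all RPKM of the chain in a cell, the 13 mitochondrial genes made a median of 72.0% in regression and 75.4% at baseline. Nuclear and mitochondrial members varied almost apart from each other from cell to cell. The mean level of the compared nuclear subunits and that of the 13 mitochondrial genes had a correlation of 0.12 over 113 regression cells and 0.07 over 125 baseline cells (Pearson's r, cells of 1 condition sharing their animals and preparation). The nuclear level followed the number of genes listed in the cell, with r of 0.78 in regression cells and 0.82 in baseline cells, and the mitochondrial level did so less, with 0.26 and 0.25. Pairs of nuclear subunits had a median r of 0.12 in regression cells and 0.15 in baseline cells, and pairs of mitochondrial genes 0.38 and 0.36.

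**Figure D4:**
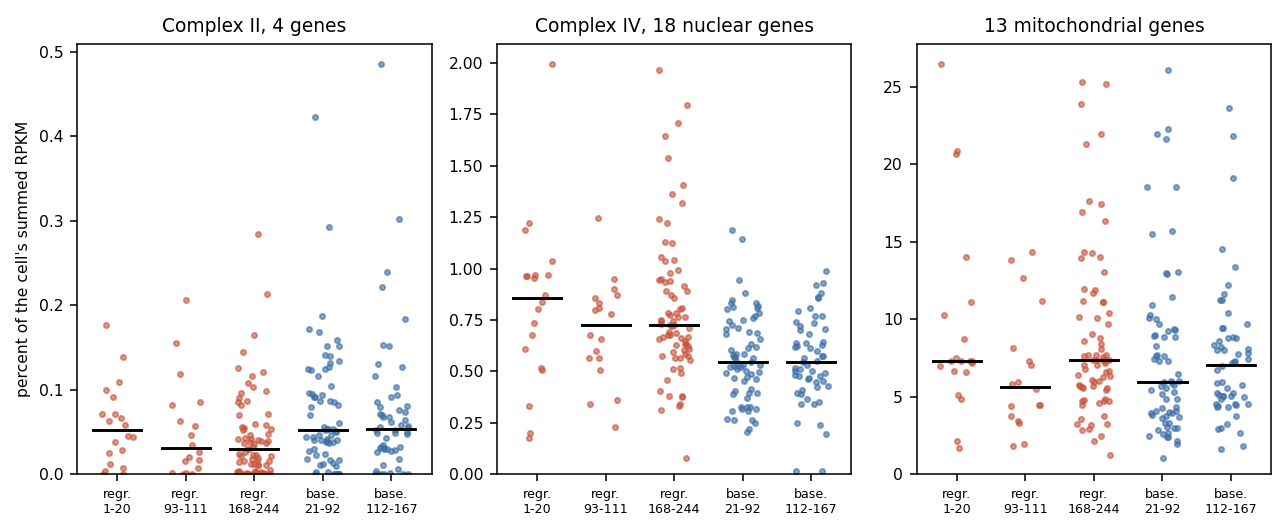
Percent of each cell's summed RPKM held by the 4 complex II genes, the 18 nuclear complex IV genes and the 13 mitochondrial genes, with 1 point a cell (red, regression; blue, baseline) and bars at the medians of each number stretch. Complex IV medians are 0.745% over regression cells and 0.546% over baseline cells, those of complex II 0.0347% and 0.0531%, and the mitochondrial medians of the stretches overlap.

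On the log2(RPKM + 1) scale, differences of the subunits were lower for longer transcripts. The 8 subunits past 1 include 7 of the 48 whose transcripts are shorter than 1 kb, and all 3 subunits past -1 are among the 24 with transcripts of 1 kb or more. The median difference was 0.26 for the short group and -0.21 for the long one. By the log2 ratio of mean RPKM both medians were above 0, with 0.52 for the short group and 0.15 for the long one, and without cells 1 to 20 the median difference of the short group was 0.13. Over the other genes compared, the medians were 0.08 for 447 genes under 1 kb and -0.07 for 2797 genes of 1 kb or more. Across the 72 subunits, difference and log2 transcript length had r of -0.45 and rho of -0.49, and difference and mean level had r of 0.50 and rho of 0.49. These are correlations across genes of the same cells, and genes are not independent replicates. Over 3333 compared genes with a length they were -0.06 and 0.04 (Pearson's r). Complex IV genes are short, with a median transcript of 606 bases, and the 4 complex II genes are long, with a median of 1612 bases. Complex and length thus cannot be told apart between complexes II and IV. The median transcript was 519.5 bases in complex III, 742 bases in complex V and 810 bases in complex I. The median differences of these complexes were 0.32, 0.09 and -0.03. Genes of the cytosolic ribosome, which are also short and abundant, had a median difference of 0.72, with 76 of 83 compared genes higher in regression cells, led by Rpl22 (1.77) and Rps15a (1.72). They held a median of 13.2% of summed RPKM in regression cells and 9.11% in baseline cells. The part of transcript length and of abundance in the differences of the subunits was not tested.

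**Figure D5:**
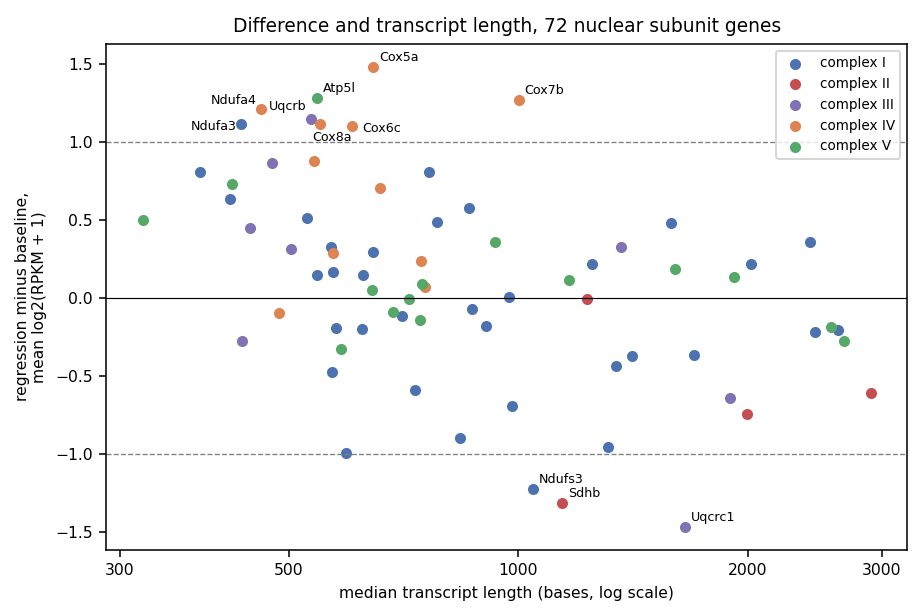
Difference (regression minus baseline, mean log2(RPKM + 1)) of the 72 compared nuclear subunit genes against the median length of their annotated transcripts in bases on a log axis, coloured by complex. Genes above 1 lie at the short end, with Cox7b the longest of them, and Ndufs3, Sdhb and Uqcrc1, the genes below -1, are longer than 1 kb.

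Promoters of the members were read for motifs of NRF1 and of ETS factors such as GABP (NRF2), both known as activators of respiratory chain genes. The RefSeq promoter table, on build GRCm38, held 67 of the 81 subunits, each with 250 bases before and 50 bases after the start. The NRF1 motif, GCGCA followed by any base and GCGC, searched on both strands, was present in a promoter of 17 of the 67 subunit genes (25.4%), against 12.9% of 2819 compared genes and 5.19% of all 27025 genes of the table. A gene with several promoters in the table counts once, and counts as holding a motif where any of them does. The ETS motif CCGGAAG, also on both strands, was present in 16 of 67 (23.9%), against 22.5% of compared genes and 9.93% of all genes. Neither motif contains the other. By complex, the NRF1 motif was in 7 of 32 complex I, 2 of 3 complex II, 1 of 5 complex III, 1 of 13 complex IV and 6 of 14 complex V genes. Of the subunits with differences of 1 or more, 0 of 6 genes in the table held the NRF1 motif and 2 of 6 the ETS motif. Of those at -1 or less, 1 of 3 held the NRF1 motif and 2 of 3 the ETS motif. A match is a description of the letters and not evidence of binding.

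The 150 bases before the start are shown for 4 members with different matches, in lower case with the motif matches in capitals, and the matches named next are those within these bases. Sdha has 3 NRF1 matches (chr13:74350241-74350390, minus strand). Cox6a1, the nuclear complex IV gene of highest mean RPKM, has 1 match of each motif and another NRF1 match further upstream (chr5:115348959-115349108, minus strand). Ndufs3, lower in regression cells, has 1 ETS match and another after the start (chr2:90904722-90904871, minus strand). Cox5a, with the highest difference, has no match (chr9:57521082-57521231, plus strand).
Sdha: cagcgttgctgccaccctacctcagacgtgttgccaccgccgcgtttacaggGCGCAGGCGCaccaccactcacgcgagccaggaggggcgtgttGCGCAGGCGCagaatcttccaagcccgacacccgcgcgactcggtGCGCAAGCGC
Cox6a1: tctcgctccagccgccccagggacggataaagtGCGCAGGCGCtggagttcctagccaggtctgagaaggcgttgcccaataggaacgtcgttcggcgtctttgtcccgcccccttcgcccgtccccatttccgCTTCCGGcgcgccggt
Ndufs3: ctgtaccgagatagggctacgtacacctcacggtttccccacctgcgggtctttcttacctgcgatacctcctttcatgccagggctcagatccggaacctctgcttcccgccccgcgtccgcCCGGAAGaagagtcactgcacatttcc
Cox5a: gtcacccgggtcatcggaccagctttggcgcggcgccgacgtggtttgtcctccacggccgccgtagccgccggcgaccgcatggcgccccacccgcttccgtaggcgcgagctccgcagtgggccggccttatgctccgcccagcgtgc

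Genes that build, feed or replace the chain were read beside it. Of 38 assembly factors, of which the rule holds 11, 9 were compared, with a median of 0.18 that was -0.015 when cells 1 to 20 were left out. Cox17, a copper chaperone of complex IV, was higher by 1.02 with stretches apart, though by 0.77 without cells 1 to 20 and 0.67 without cells 21 to 92, and the complex I factor Ndufaf7 was lower by 0.75 on the log2 scale. Of 8 compared genes of the tricarboxylic acid cycle, 2 were higher and 6 lower, with a median of -0.19, and none passed 1 or -1. Leaving out cells 168 to 244 turned this median to 0.33, with Mdh2 at 1.05, Idh3b at 1.01 and Idh3g at -1.08. Over all cells, the differences largest in size were those of Idh3a (-0.79) and Idh3g (-0.40), subunits of isocitrate dehydrogenase, and for both the stretches overlapped. The 2 cycle genes with stretches apart, Idh3b (0.40) and Cs (0.35), were higher in regression cells. The Idh3a difference was -0.13 without cells 168 to 244. Among 9 compared carriers, Slc25a3, which brings phosphate into mitochondria for ATP synthase, was higher by 1.91 (levels of 6.97 ± 2.95 in regression cells and 5.05 ± 3.44 in baseline cells). Slc25a4, an ADP/ATP carrier, differed by -1.15 (levels of 2.19 ± 3.22 in regression cells and 3.34 ± 3.47 in baseline cells), and both carriers had stretches apart. The Slc25a4 difference was -0.78 without cells 112 to 167 and -0.99 without cells 93 to 111. Of 4 compared genes of pyruvate entry, Mpc1 differed by -1.69 and Mpc2 by 0.93, although their products work together as the pyruvate carrier. Without cells 168 to 244 these were -0.97 and 0.32. The mitochondrial ribosome had a median of 0.01 over 37 compared genes (-0.17 without cells 21 to 92), led by Mrps21 (1.26) and Mrpl54 (-0.96). No gene of the list of mitochondrial biogenesis, which holds Ppargc1a, Nrf1, Gabpa and Tfam, passed the filter. The list of glycolysis and hypoxia genes had a median difference of 1.32, led by Hif1a (3.56) and Pgk1 (2.67). Of its 16 compared genes 13 were higher (81.25%, against 46.7% of all genes compared). Differences of 1 or more were found for 8 (50.0%, against 5.81%). Every regression stretch lay above both baseline stretches for 6 of the 16 (37.5%, against 11.7%).

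Of the complex I genes, Ndufs5 (listed in 15.9% of regression cells and 24.0% of baseline cells) and Ndufv1, the subunit that binds NADH (17.7% and 28.8%), did not reach the filter, with differences of -0.57 and -0.68. Of the 11 assembly factors in the rule 2 were compared, Ndufaf7 and Sdhaf4, which differed by -0.07. The other 9 were listed in 0.885 to 16.8% of regression cells and 4.00 to 22.4% of baseline cells. Atp5s and Atp5sl were listed in 2.65% and 5.31% of regression cells and in 3.20% and 12.0% of baseline cells.

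Markers of classical monocytes differed between the groups along with the members. At least 3 of 6 such markers were listed in 34.5% of regression cells and 17.6% of baseline cells. Their summed RPKM ran from 0 to 17664 in regression cells (median 520.2) and from 0 to 7786 in baseline cells (median 231), with Ccr2 higher by 2.03 and Ly6c2, listed in 7 regression cells and 20 baseline cells, differing by -0.32. At least 3 of 5 neutrophil markers were listed in 5 regression cells and 2 baseline cells, with Ly6g listed in none. Markers of T cells, B cells, NK cells, endothelium, smooth muscle, fibroblasts and adipocytes reached 3 in no cell, and those of dendritic cells did so in 0 regression cells and 2 baseline cells. The part of monocytes and of the macrophage markers in the differences of the members was not tested.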

How the data were processed

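The deposited table holds RPKM values (reads per kilobase of transcript, scaled to the library's reads) that the authors made for 244 single-cell libraries. The labels' protocols name Fluidigm C1 capture, the SMARTer Ultra Low RNA kit and Nextera XT. Build mm10, CASAVA 1.8.2 and FastQC are named per the submitters' processing notes. Which aligner and annotation were used, and how reads with several matches were treated, was not given in the sources used here. No molecular identifiers were used, so values carry the noise of amplification, and the intervals and limits of shares cover counting error only.

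Columns were matched to samples by the number in the title. Baseline pairs 57 and 58, 64 and 65, and 70 and 71 had log2 values that correlated at 0.992 to 0.997 (at most 0.654 for any other pair); each pair differed little enough to be averaged and counted as 1 cell. Cells listing at least 1000 genes were kept, which was 113 of 116 regression cells and 125 of 125 baseline cells. Values were compared as log2(RPKM + 1), and a gene was compared where, averaged over conditions, 25% of cells or more had it at an RPKM of at least 1. With 1 sample a condition no test was run, RPKM are not counts, and a limit of 1 or -1 is a size only. Doublets were not called. Shares of cells have Clopper-Pearson 95% intervals, and where no cell listed a gene the share equal to 3 cells stands beside the 0. Depth was estimated from the smallest steps between low values of genes with 1 transcript, in the 125 of 244 libraries where separate gene sets gave the same step within 10%. Positions and transcript lengths come from GENCODE vM21, on GRCm38 (mm10).

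Genes named are, per complex, the 2 highest, the 2 lowest and the highest in mean RPKM, every member past 1 or -1 with stretches apart, 22 fixed symbols, and the 2 largest of each list. Any other gene named was picked with its value in view. Members and lists were chosen with earlier results of these data known. The computation was tested on simulated data. Python 3.11.15, pandas 2.3.3, numpy 2.4.6, scipy 1.17.1 and matplotlib 3.10.9 were used. Alternatives covered the pseudocount, filters, rescaling, log2 ratios of means, near copies, the weight of stretches and leaving out each stretch.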

Additional observations from a re-analysis of the deposited data

How the results depend on the processing

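Settings were changed 1 at a time. The medians over all nuclear subunits, complex I, complex II, complex V and the 13 mitochondrial genes moved by less than the spread between stretches in all 16 alternatives run, and ran from 0.01 to 0.40, -0.11 to 0.34, -0.99 to -0.39, -0.06 to 0.44 and 0.16 to 0.43. This is a loose limit, because stretches of 1 condition lay far apart. The mean level over the nuclear subunits was 5.13, 4.29 and 4.67 in the regression stretches, beside a median difference of 0.12. The medians of complexes I and V changed sign within this limit. The complex IV median stayed above 0. It was 0.17 with no filter on low values, a setting that adds to the 11 compared genes the 7 isoforms that few cells listed. With the filter it was 0.58 in cells with at least 2000 genes, 0.51 without cells 21 to 92 and 0.58 without cells 168 to 244. The complex III median was 0.54 under the log2 ratio of mean RPKM, 0.11 in cells with at least 2000 genes, 0.096 with equal weight for each stretch, 0.56 without cells 21 to 92, 0.55 without cells 93 to 111, 0.086 without cells 112 to 167 and -0.24 without cells 168 to 244. The count of subunits at 1 or more was 3 with pseudocount 10, 4 with no filter on cells and 3 with equal weight for each stretch. The count at -1 or less was 8 with pseudocount 0.1, 0 with pseudocount 10, 6 under both rescalings of each cell to a sum of 1000000, 0 under the log2 ratio of means, 5 in cells with at least 2000 genes, 5 with no filter on cells, 5 without cells 1 to 20 and 7 without cells 21 to 92. Subunits with stretches apart numbered 29 without cells 1 to 20, 32 without cells 21 to 92 and 36 without cells 93 to 111, since fewer stretches then have to be apart. The regression minus baseline difference in the mitochondrial share of RPKM, 1.25 percentage points, was 0.25 with equal weight and 0.21 without cells 21 to 92. The cause of these shifts was otherwise not tested. Of the 12 members past 1 or -1 that the text names, ND6 included, 0 changed sign, and 8 came under the limit without cells 168 to 244, 9 with pseudocount 10, 7 under the ratio of means and 7 with equal weight. The median of all genes was -0.11 with each cell rescaled over all rows and -0.10 with it rescaled over rows off the mitochondrial chromosome. Sums of RPKM have no value under another pseudocount, filter on genes or ratio of means, and stretches apart none under the ratio of means or equal weight. No paired analysis was possible because the numbers in the titles do not recur between the conditions. A subunit listed at 0 in a cell may be undetected or absent there, and the part of depth in these zeros was not tested.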

Other observations

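The 3 regression cells left out for listing fewer than 1000 genes (numbers 111, 208 and 217) listed 754, 835 and 832 genes. The 13 mitochondrial genes held 0.540, 6.47 and 2.41% of their summed RPKM and the nuclear subunits 2.29, 0.908 and 1.62%, with 10, 12 and 10 of the 81 subunits listed.

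Ins2, an islet hormone gene, was listed in 20.4% of regression cells and 11.2% of baseline cells, at low values.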
